A study of Mus musculus with 48 samples.

Results

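Ahr, Cyp1a1, Cyp1a2, Tiparp, Nqo1 and Cyp2a5 were followed in mouse liver as the aryl hydrocarbon receptor gene, 4 of its known target genes and 1 further cytochrome P450 gene. The 6 genes were picked by symbol, with earlier results of these data known, and each had a row among the 14251 genes of the count table. All 6 also passed the filter on low counts that left 12688 genes for testing. The samples were livers of male C57BL6J mice whose drinking water held, for 2 weeks, either the vehicle, 1% ethanol, or corticosterone, the stress glucocorticoid of mice, at 100 ug/ml. Within each treatment, mice ate a Teklad chow as such (control diet) or the same chow with atglistatin milled in at 571 mg/kg. Atglistatin blocks the fat-splitting enzyme ATGL, encoded by Pnpla2. With vehicle there were 10 livers on the control diet and 10 on atglistatin, and with corticosterone 14 and 14. Of the corticosterone livers, 9 on the control diet and 1 on atglistatin were labelled diabetic. Age, cage and time of killing were not stated in the sources used here.

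The aryl hydrocarbon receptor (AHR) is a cytosolic factor that binds planar aromatic compounds, some drugs, and indoles from diet and tryptophan. After binding, it enters the nucleus, pairs with ARNT and acts on genes that carry a short GCGTG core. Cyp1a1 and Cyp1a2 encode monooxygenases of aromatic compounds and caffeine and are its textbook targets, with Cyp1a2 expressed in unexposed liver around the central vein and Cyp1a1 hardly at all. Tiparp encodes an ADP-ribosyltransferase that is induced by AHR and in turn represses it, and it also responds to nuclear receptors. Nqo1 encodes a quinone reductase under both AHR and the oxidative stress factor NRF2. Cyp2a5 encodes the mouse coumarin 7-hydroxylase, which also oxidises nicotine, and its transcription is known to respond to the xenobiotic receptor CAR, to NRF2, to AHR and to the clock-controlled PAR bZIP factors DBP, TEF and HLF.

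Promoter windows are shown for the 3 genes in which a searched motif was found, so that the letters behind each match can be read. They run from 250 bases before to 50 bases after the RefSeq gene start (GRCm38.p6), 5′ to 3′ on the gene's strand, with the match in capitals. The Cyp1a1 window is chr9:57697363-57697662 on the plus strand and the capitals mark GCGTG. The Tiparp window is chr3:65528197-65528496 on the plus strand, and its capitals are GCGTG read on the opposite strand. The Cyp2a5 window is chr7:26835089-26835388 on the plus strand, and its capitals are a D-box, the PAR bZIP motif TTATGCAA, read on the opposite strand.
Cyp1a1: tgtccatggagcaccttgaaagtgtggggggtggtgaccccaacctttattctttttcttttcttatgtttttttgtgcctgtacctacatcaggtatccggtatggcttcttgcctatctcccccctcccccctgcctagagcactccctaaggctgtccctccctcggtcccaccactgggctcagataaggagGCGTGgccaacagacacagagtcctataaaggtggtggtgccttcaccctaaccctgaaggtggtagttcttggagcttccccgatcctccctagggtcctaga
Tiparp: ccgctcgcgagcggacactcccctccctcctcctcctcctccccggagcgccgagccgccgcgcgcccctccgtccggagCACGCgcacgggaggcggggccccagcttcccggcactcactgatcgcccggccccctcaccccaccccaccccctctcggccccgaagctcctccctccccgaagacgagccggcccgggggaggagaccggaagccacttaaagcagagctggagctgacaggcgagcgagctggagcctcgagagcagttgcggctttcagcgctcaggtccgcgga
Cyp2a5: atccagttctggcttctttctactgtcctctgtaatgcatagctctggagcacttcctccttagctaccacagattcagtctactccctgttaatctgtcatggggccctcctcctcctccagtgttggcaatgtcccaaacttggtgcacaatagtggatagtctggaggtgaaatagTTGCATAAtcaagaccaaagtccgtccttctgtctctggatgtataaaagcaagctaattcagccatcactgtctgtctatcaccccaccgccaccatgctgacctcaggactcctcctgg
GCGTG was searched on both strands and 32.5% of 27025 RefSeq promoter windows of the same 300 bases held it. The D-box was searched as TTATGCAA or TTATGTAA on both strands and was in 1.74% of windows. The other motif, the antioxidant response core TGACNNNGC, was in 12.5% of windows and in none of those of Cyp1a1, Cyp1a2, Tiparp, Nqo1 and Cyp2a5. The Cyp1a1 match began 54 bases before the gene start, the Tiparp match 170 bases before it and the Cyp2a5 match 71 bases before it. No searched motif was in the windows of Cyp1a2 and Nqo1. Ahr had no window in the promoter set used here and was not searched. These are matches of letters in 1 window and not measured binding sites.

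In the GENCODE M21 annotation (GRCm38), Ahr lies at chr12:35497974-35535038 on the minus strand. Cyp1a1 (chr9:57687928-57703824, plus) and Cyp1a2 (chr9:57676937-57683703, minus) are neighbours on opposite strands. The Cyp1a1 window shown above lies well inside this GENCODE span, so the distance given for its match refers to the RefSeq start alone. Tiparp lies at chr3:65528410-65555518 (plus), Nqo1 at chr8:107388225-107403206 (minus) and Cyp2a5 at chr7:26835305-26843548 (plus). QuantSeq reads the 3′ end of polyadenylated transcripts, so a value is the count at the end of the gene. Tiparp overlaps an antisense gene, 4931440P22Rik, at its 5′ end, and whether counting used strand is not stated. Levels are library-size normalised counts (edgeR's CPM, after TMM scaling), and they were compared between groups and not between genes.

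Library totals ran from 7449109 to 21175603 counts over the 48 libraries. The 7 hepatocyte markers measured summed to between 79940 and 148000 CPM, which fits the liver label. Cpa1, a pancreatic acinar gene, was above 20 CPM in 6 libraries: vehicle control-diet replicates 9, 10 and 15, vehicle atglistatin replicates 6 and 11, and corticosterone control-diet replicate 30. The fold changes of the 6 genes were also computed without these 6 libraries and with a clock index as a covariate. Group comparisons with corticosterone livers were also computed without livers labelled diabetic. Gene lists and other named genes were not refitted in these settings. In bulk liver, fewer cells of a type and less RNA per cell cannot be told apart. The labels do not say whether livers of 1 group shared a cage, so p-values measure the spread between these samples.

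Under vehicle, atglistatin went with higher levels of Cyp1a1, Cyp1a2, Nqo1 and Cyp2a5. The largest of these differences were 4.31-fold for Cyp1a1 and 3.64-fold for Cyp2a5. With the control-diet groups alone Cyp1a1 did not pass the filter on low counts, so its inclusion depended on the atglistatin livers, where it was high. Ahr itself and Tiparp did not pass the test. The 4 called genes were all higher, in a comparison that called 3.13% of all genes tested, 1.47% as higher and 1.66% as lower. The median log2 fold change of the 6 genes was 1.23, against -0.0022 over all genes tested.

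**Figure D1:**
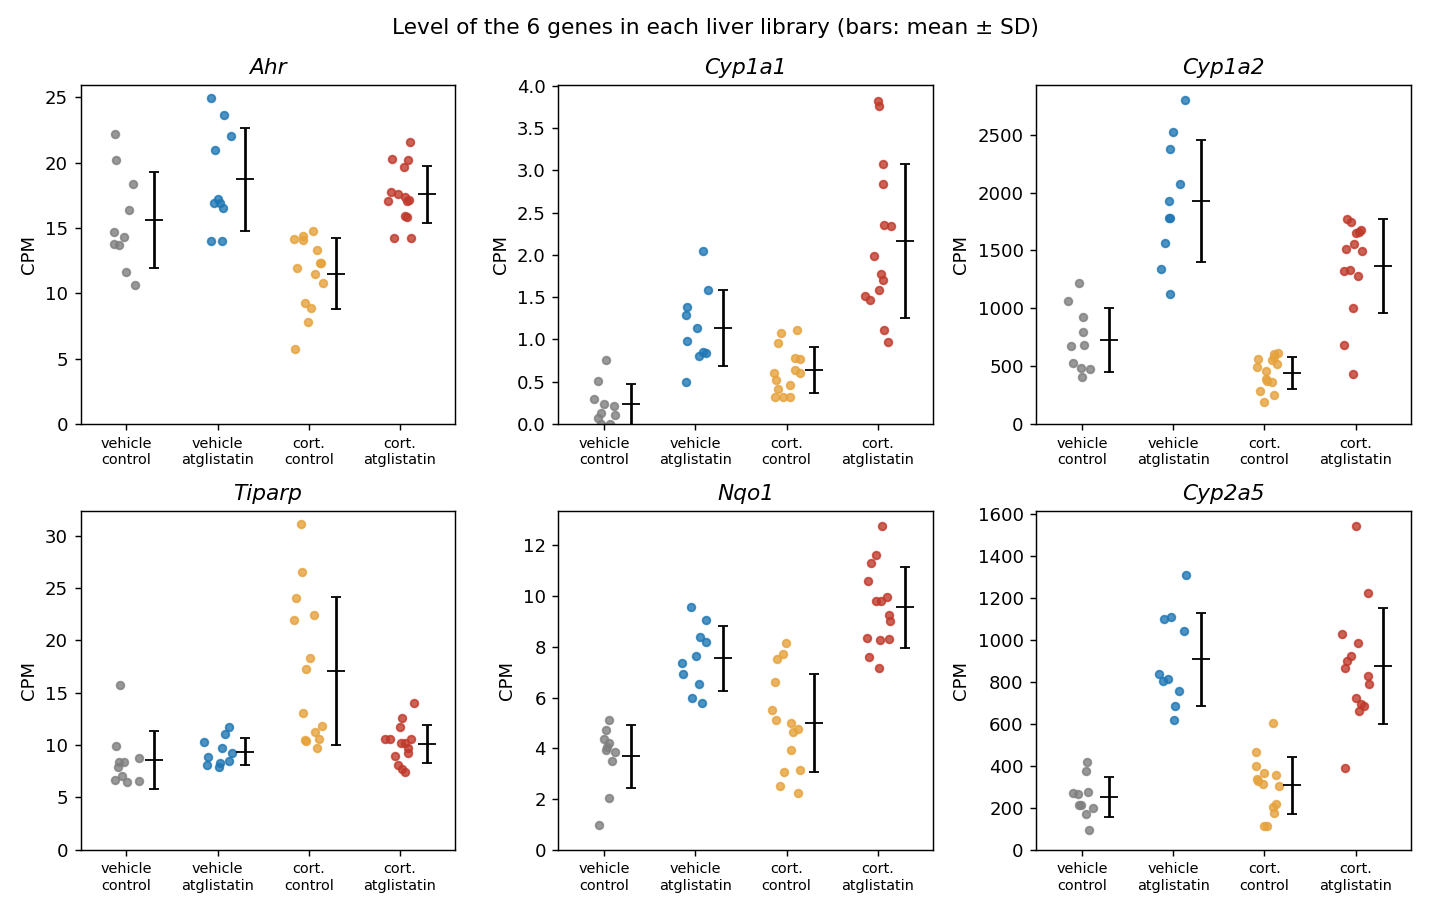
CPM (y axis, linear, a separate scale per gene) of each of the 6 genes in all 48 liver libraries, by treatment and diet. Each point is 1 library and the bar beside the points is the mean ± SD, cut off at 0 for Cyp1a1 in vehicle control-diet livers. Nqo1 and Cyp2a5 do not overlap between the 2 vehicle groups, and Tiparp is spread widely only in corticosterone control-diet livers, from 9.73 to 31.1 CPM.

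Ahr was at 10.7 to 22.2 CPM (median 14.5) in the 10 vehicle control-diet livers and at 13.97 to 24.98 CPM (median 17.1) in the 10 vehicle atglistatin livers. The ranges overlapped, with 2 atglistatin livers above every control. The log2 fold change was 0.26 ± 0.13 (SE) with an adjusted p of 0.307 in edgeR's quasi-likelihood test, and the interval of 95% ran from 0.0081 to 0.52. That interval is not adjusted for the number of genes tested, and the unadjusted p of the same test was 0.0487.

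Cyp1a1 was barely measurable on the control diet, from 0 to 0.759 CPM (median 0.175), that is 0 to 13 counts per library and 0 counts in 2 of 10. On atglistatin it was at 0.4933 to 2.04 CPM (median 1.06), or 8 to 36 counts. In 9 of 10 atglistatin livers Cyp1a1 was above the highest control, and replicate 14 was the exception. Its log2 fold change was 2.11 ± 0.36 (adjusted p = 0.000244).

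Cyp1a2 was at 403 to 1222 CPM (median 678) on the control diet and at 1126 to 2799 CPM (median 1853) on atglistatin. Only the lowest atglistatin liver (replicate 7) and the highest control liver (replicate 12) overlapped. The mean rose from 726 ± 274 to 1928 ± 527 CPM (SD, n = 10 each), 2.66-fold, with a log2 fold change of 1.41 ± 0.22 and an adjusted p of 6.52e-05.

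Tiparp was at 6.44 to 15.7 CPM (median 8.11) on the control diet and at 7.95 to 11.8 CPM (median 9.08) on atglistatin. The highest of the 20 livers was a control, replicate 4, and the other controls lay at or below 9.87 CPM. The log2 fold change was 0.13 ± 0.18 (adjusted p = 0.784), so no difference was detected for the AHR repressor in the comparison that called both CYP1A genes, with an interval of 95% from -0.22 to 0.48.

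Nqo1 was at 0.965 to 5.11 CPM (median 3.99) on the control diet and at 5.79 to 9.57 CPM (median 7.50) on atglistatin. Every atglistatin liver was above every control liver. Its mean rose from 3.68 ± 1.26 to 7.55 ± 1.27 CPM (SD, n = 10 each), 2.06-fold (log2 1.04 ± 0.19, adjusted p = 0.000551). The lowest controls, replicates 10 and 9, were among the libraries with Cpa1 above 20 CPM, at 32.6 and 67.5 CPM of Cpa1. Without the 6 such libraries the log2 fold change of Nqo1 was 0.75 (adjusted p = 0.0303).

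Cyp2a5 was at 92.7 to 416 CPM (median 241) on the control diet and at 618 to 1308 CPM (median 826) on atglistatin. Again the ranges did not meet, and all 10 atglistatin livers were above all 10 controls. The mean rose from 249 ± 95.4 to 907 ± 219.9 CPM (SD, n = 10 each), a log2 fold change of 1.86 ± 0.24 with an adjusted p of 1.63e-06. Of all genes tested, 0.166% were higher and 0.0867% lower without overlap in this comparison, and Nqo1 and Cyp2a5 were 2 of the former.

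Clock genes moved with the same comparison. Dbp, a PAR bZIP factor whose transcript cycles over the day, was at 1.26 to 10.5 CPM on the control diet and at 10.5 to 132.6 CPM on atglistatin under vehicle, with no overlap (log2 2.95 ± 0.44, adjusted p = 3.04e-05). Arntl, the core clock factor BMAL1 and a relative of ARNT, fell by 1.03 ± 0.25 on the log2 scale (adjusted p = 0.00983). A clock index, log2 Dbp minus log2 Arntl, had medians of -0.93 and 2.62 in the 2 groups. With this index as a covariate, Cyp1a1 (log2 2.13, adjusted p = 0.0282), Cyp1a2 (1.30, adjusted p = 0.0259) and Cyp2a5 (1.31, adjusted p = 0.0252) were still called, among 15 genes in all, and Nqo1 was not (1.02, adjusted p = 0.0819). Because the index itself differed between the diets, this fit cannot cleanly tell the diet apart from what goes with the index. Within groups, over the 48 libraries, Pearson's r with Dbp was 0.502 for Cyp2a5 and between -0.229 and 0.152 for the other 5 genes. These correlations are descriptions over libraries that share depth and scaling.

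Under corticosterone, all 6 genes differed between the diets. Ahr, Cyp1a1, Cyp1a2, Nqo1 and Cyp2a5 were higher on atglistatin and Tiparp was lower. The comparison called 11.7% of all genes tested, 5.19% as higher and 6.47% as lower. The median log2 fold change of the 6 genes was 1.22, against 0.00044 over all genes tested. All 6 overlapped, where 0.229% of all genes were higher and 0.0946% lower without overlap. The 2 diet comparisons share no samples, while each shares its control-diet or atglistatin livers with the corticosterone comparisons that follow.

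Ahr was at 5.71 to 14.8 CPM (median 12.1) in the 14 corticosterone control-diet livers and at 14.2 to 21.6 CPM (median 17.2) in the 14 corticosterone atglistatin livers. In 12 of 14 atglistatin livers it was above every control. The mean rose from 11.5 ± 2.73 to 17.6 ± 2.21 CPM (SD, n = 14 each), 1.53-fold, with a log2 fold change of 0.61 ± 0.11 and an adjusted p of 0.000104.

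Cyp1a1 was at 0.316 to 1.11 CPM (median 0.603, 3 to 17 counts) on the control diet and at 0.967 to 3.82 CPM (median 1.88, 12 to 77 counts) on atglistatin. Again 12 of 14 atglistatin livers lay above every control. The log2 fold change was 1.74 ± 0.26, or 3.35-fold (adjusted p = 2.03e-06).

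Cyp1a2 was at 194 to 610 CPM (median 474) on the control diet and at 429 to 1771 CPM (median 1507) on atglistatin. Of the atglistatin livers, 13 were above every control, and replicate 41 was the lowest by far, at 429 CPM against 686 CPM in the next, replicate 26, the only atglistatin liver labelled diabetic. Cyp1a2 rose 3.08-fold (log2 1.62 ± 0.19, adjusted p = 4.34e-09).

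Tiparp was at 9.73 to 31.1 CPM (median 15.2) on the control diet and at 7.44 to 14.1 CPM (median 10.2) on atglistatin. The control livers were split, with 7 above every atglistatin liver and 7 within their range. The mean fell from 17.1 ± 7.07 to 10.1 ± 1.83 CPM (SD, n = 14 each), 1.67-fold lower (log2 -0.74 ± 0.15, adjusted p = 0.000356). Without the livers labelled diabetic, which leaves 5 controls, the value was -0.51 with an adjusted p of 0.0527. Replicate 36 of those 5 had a high fed glucose, given with the diabetic labels, and without it as well Tiparp was at -0.43 (adjusted p = 0.195) and Ahr at 0.50 (adjusted p = 0.0748), while Cyp1a1, Cyp1a2, Nqo1 and Cyp2a5 were still called, at 1.85, 1.40, 1.39 and 1.97.

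Nqo1 was at 2.23 to 8.17 CPM (median 4.88) on the control diet and at 7.16 to 12.8 CPM (median 9.52) on atglistatin. In 12 of 14 atglistatin livers the level was above every control. Nqo1 rose 1.91-fold (log2 0.93 ± 0.16, adjusted p = 2.57e-05).

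Cyp2a5 was at 112 to 603 CPM (median 322) on the control diet and at 391 to 1544 CPM (median 848) on atglistatin. Replicate 41 was again the lowest atglistatin liver, and the other 13 were above every control. The log2 fold change was 1.51 ± 0.20, or 2.84-fold, with an adjusted p of 1.94e-07. Dbp was higher here as well, at 2.98 to 26.7 CPM against 1.08 to 10.5 CPM (log2 1.89 ± 0.38, adjusted p = 0.000366). With the clock index as a covariate all 6 genes were called, among 793 genes, and Cyp2a5 was at 1.14. The index differed between these diets too, with medians of -2.11 on the control diet and 0.76 on atglistatin, so the same limit holds.

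**Figure D2:**
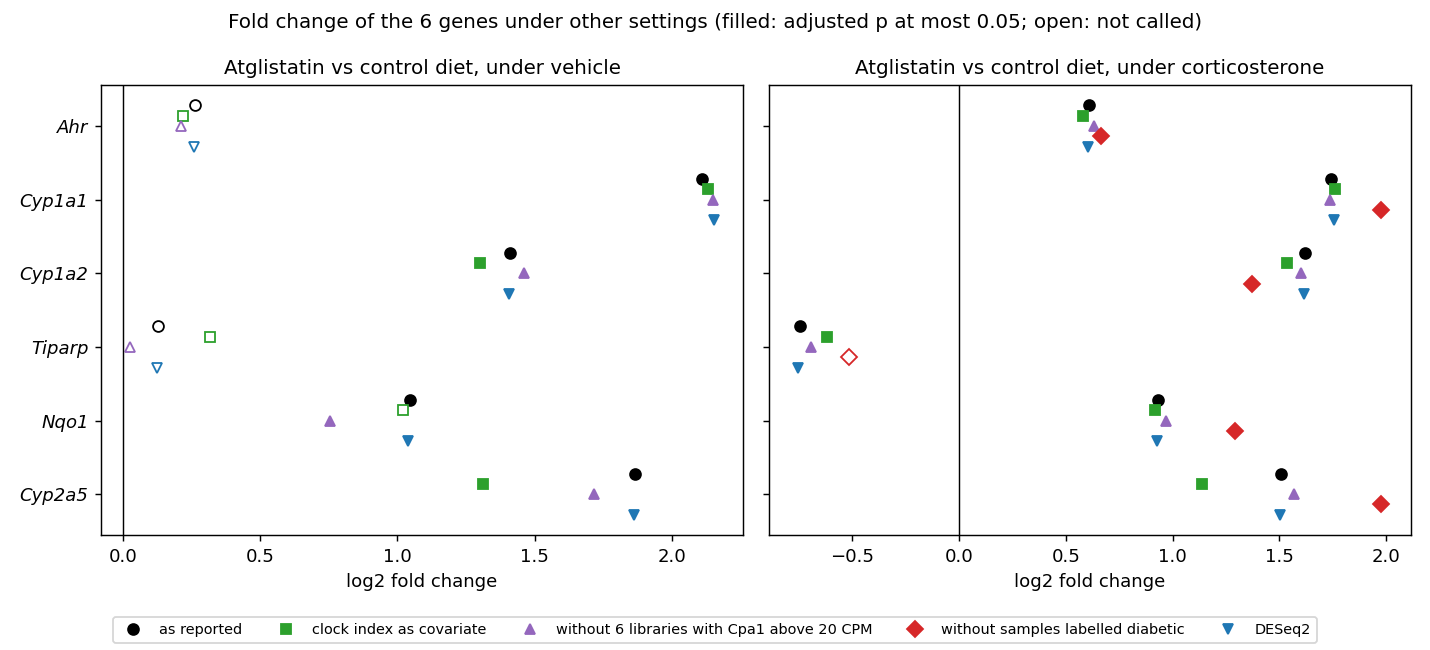
Log2 fold change (x axis) of the 6 genes for atglistatin against control diet under vehicle (left) and corticosterone (right), as reported and under 4 other settings. Filled symbols have an adjusted p of at most 0.05 and open symbols do not. Under vehicle there is no liver labelled diabetic, so that setting is shown on the right only, where Tiparp without those livers is open at -0.51, while Cyp2a5 with the clock index is at 1.31 on the left and 1.14 on the right.

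Corticosterone on the control diet called 5 of the 6 genes, in a comparison that called 44.2% of all genes, 22.5% as higher and 21.7% as lower. Many genes moved with corticosterone, so 5 of 6 is to be read against that share. Cyp1a1 (log2 1.29 ± 0.37, adjusted p = 0.00348), Tiparp (0.98 ± 0.17, adjusted p = 3.48e-06) and Nqo1 (0.45 ± 0.18, adjusted p = 0.0434) were higher. Ahr (-0.44 ± 0.12, adjusted p = 0.00291) and Cyp1a2 (-0.71 ± 0.20, adjusted p = 0.00263) were lower. The textbook pair Cyp1a1 and Cyp1a2 thus had fold changes of opposite sign. Cyp1a1 was at 0 to 13 counts per library with vehicle and 3 to 17 with corticosterone. With these groups alone Cyp1a1 did not pass the filter on low counts, so its call rests on a fit that includes the atglistatin livers. Cyp2a5 was not called (0.30 ± 0.22, adjusted p = 0.263, with an interval of 95% from -0.12 to 0.73).

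All 6 genes overlapped between the 2 groups, where 2.68% of all genes were higher and 3.43% lower without overlap. Against the vehicle mean, all 14 corticosterone livers were lower in Ahr and Cyp1a2 and higher in Cyp1a1 and Tiparp, and 10 of 14 were higher in Nqo1. Tiparp was above every vehicle liver in 7 of 14, Cyp1a1 in 5 of 14, and Cyp1a2 was below every vehicle liver in 6 of 14. The vehicle liver highest in Tiparp, replicate 4, set that limit.

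Several of these calls depended on which livers were included. Without the 9 livers labelled diabetic, Ahr and Tiparp were the 2 genes still called, Cyp1a1 was at 1.08 (adjusted p = 0.0877), Cyp1a2 at -0.42 (adjusted p = 0.201) and Nqo1 at 0.10 (adjusted p = 0.766), and 3614 genes were called in place of 5606. Without replicate 36 as well, Tiparp alone was called (0.61, adjusted p = 0.0105), with Ahr at -0.33 (adjusted p = 0.144). Nqo1 was also not called without the libraries with Cpa1 above 20 CPM (0.17, adjusted p = 0.464). The call of Nqo1 was lost in 12 of 24 fits that left out 1 library. Those libraries were vehicle replicates 1, 9, 10 and 15 and corticosterone replicates 29, 30, 35, 36, 37, 45, 49 and 50. The lowest value, 0.32 (adjusted p = 0.123), came without vehicle replicate 10.

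Markers of other liver cells moved with corticosterone. On the control diet, 6 of 7 Kupffer cell and macrophage markers and 3 of 3 tested leukocyte and lymphocyte markers were lower, where 21.7% of all genes were lower. Of the 3, Ptprc, a gene of all leukocytes, had the highest mean with vehicle (9.04 CPM, against 2.19 for Trbc2 and 0.978 for Ighd). Of 7 sinusoidal endothelial markers 3 were lower and 0 higher, and of 6 stellate cell markers 4 were lower and 1 higher. Of 4 tested cholangiocyte markers 2 were lower and 1 higher, and of 7 hepatocyte markers 1 was lower and 2 higher. No Kupffer marker was at 0 counts in any library, while 4 of 5 leukocyte and lymphocyte markers in the table were at 0 in at least 1 corticosterone library. The summed Kupffer markers were at 155 to 280 CPM with vehicle and at 55.8 to 127 CPM with corticosterone. The summed leukocyte and lymphocyte markers were at 8.76 to 20.99 and 1.06 to 3.34 CPM. Their part in the values of the 6 genes was not tested.

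On the atglistatin diet, corticosterone called Cyp1a1 and Cyp1a2, while 36.7% of all genes were called, 19% as higher and 17.7% as lower. All 6 genes overlapped, where 1.69% of all genes were higher and 1.46% lower without overlap. Cyp1a1 was higher (0.93 ± 0.26, adjusted p = 0.00475) in 12 of 14 livers against the vehicle mean. Cyp1a2 was lower (-0.50 ± 0.20, adjusted p = 0.0413), with all 14 livers below the vehicle mean and 7 of 10 vehicle livers above every corticosterone liver. Nqo1 did not pass (0.34 ± 0.17, adjusted p = 0.111), though it did without the libraries with Cpa1 above 20 CPM (0.39, adjusted p = 0.0471), with the compared groups alone (0.31, adjusted p = 0.0145) and in limma voom (0.37, adjusted p = 0.022). Nor did Ahr (-0.09 ± 0.12, adjusted p = 0.585), Tiparp (0.11 ± 0.16, adjusted p = 0.63) or Cyp2a5 (-0.05 ± 0.21, adjusted p = 0.876) pass. The intervals of 95% were -0.33 to 0.14 for Ahr, -0.21 to 0.43 for Tiparp and -0.47 to 0.37 for Cyp2a5.

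The call of Cyp1a2 on atglistatin was narrow. It was lost in 8 of 24 fits without 1 library, namely vehicle replicates 6, 9, 10 and 13 and corticosterone replicates 17, 18, 26 and 41, with the highest adjusted p, 0.0964, without vehicle replicate 9. With the clock index as a covariate it was at -0.42 (adjusted p = 0.158), and without the libraries with Cpa1 above 20 CPM at -0.50 (adjusted p = 0.0687). Kupffer markers summed to 118 to 216 CPM with vehicle and 42.6 to 263 CPM with corticosterone on this diet, 6 of 7 being lower. Leukocyte and lymphocyte markers summed to 8.52 to 13.5 and 0.834 to 3.70 CPM, 3 of 3 lower. Of all genes, 17.7% were lower. Of 7 sinusoidal endothelial markers 5 were lower, and of 6 stellate cell markers 4, with 0 higher in either list. Of 4 tested cholangiocyte markers 0 were lower and 1 higher, and of 7 hepatocyte markers 1 was lower and 0 higher. Their part in the result was not tested.

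**Figure D3:**
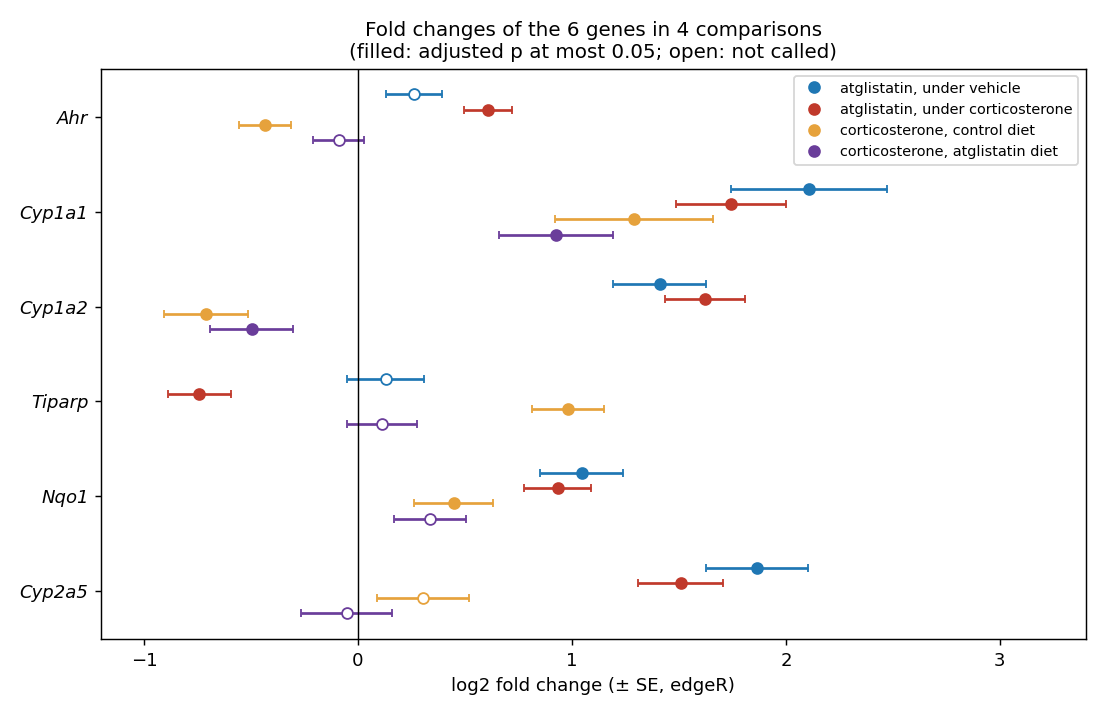
Log2 fold change ± SE (x axis) of the 6 genes in the 4 comparisons between 2 groups. Filled points have an adjusted p of at most 0.05. Cyp1a1 is to the right of 0 in all 4 comparisons, Cyp1a2 is to the right with atglistatin and to the left with corticosterone, and Tiparp is near 0 except for corticosterone on the control diet (0.98) and atglistatin under corticosterone (-0.74).

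Tiparp was the member whose response to atglistatin differed between the treatments. The interaction, the log2 fold change of atglistatin under corticosterone minus that under vehicle, was -0.87 ± 0.23 (adjusted p = 0.0419), where 1.43% of all genes were called, 0.725% in this direction and 0.701% in the other. Tiparp was at a mean of 8.57 ± 2.75, 9.38 ± 1.30, 17.1 ± 7.07 and 10.1 ± 1.83 CPM in control-diet and atglistatin livers of the vehicle mice and then of the corticosterone mice. Only the third of these groups stood above the others. The call was fragile, for it was lost in 18 of 48 fits without 1 library, with an adjusted p of up to 0.0665. They were vehicle control-diet replicates 9, 10, 11, 12 and 15, vehicle atglistatin replicates 10, 11 and 14, corticosterone control-diet replicates 30, 34, 35, 36 and 37, and corticosterone atglistatin replicates 14, 17, 23, 47 and 48. Over all 48 such fits the value stayed between -1.02 and -0.79. Without the livers labelled diabetic it was -0.64 (adjusted p = 0.221), without replicate 36 as well -0.55 (adjusted p = 0.413), and without the libraries with Cpa1 above 20 CPM -0.72 (adjusted p = 0.286).

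For the other 5 genes no interaction was detected. Ahr was at 0.35 ± 0.17 (adjusted p = 0.421), Cyp2a5 at -0.36 ± 0.30 (adjusted p = 0.726) and Cyp1a1 at -0.36 ± 0.44 (adjusted p = 0.828). Cyp1a2 was at 0.21 ± 0.28 (adjusted p = 0.848) and Nqo1 at -0.11 ± 0.25 (adjusted p = 0.924). Ahr was called with atglistatin under corticosterone and not under vehicle, and this test did not show that the 2 responses differ.

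Livers with both treatments were set against livers with neither, a comparison that shares its groups with those above. Cyp1a1 was 8.19-fold higher (log2 3.03 ± 0.33, adjusted p = 2.22e-10), Cyp2a5 3.51-fold (1.81 ± 0.23, adjusted p = 6.32e-09), Nqo1 2.60-fold (1.38 ± 0.18, adjusted p = 1.74e-08) and Cyp1a2 1.88-fold (0.91 ± 0.20, adjusted p = 0.000236). The value of Cyp1a1 is set against livers at 0 to 13 counts, and its inclusion depended on the atglistatin livers. In this comparison 43.6% of all genes were called, 22.2% as higher and 21.4% as lower. Cyp1a1 and Nqo1 did not overlap, where 2.41% of all genes were higher and 2.62% lower without overlap. Ahr (0.17 ± 0.12, adjusted p = 0.255) and Tiparp (0.24 ± 0.17, adjusted p = 0.248) were not called.

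By mean level, Cyp1a2 and Cyp2a5 ran highest in vehicle atglistatin livers, and Cyp1a1 and Nqo1 in corticosterone atglistatin livers. The order for Cyp1a2 was vehicle atglistatin (1928 ± 527 CPM, n = 10), corticosterone atglistatin (1366 ± 405 CPM, n = 14), vehicle control (726 ± 274 CPM) and corticosterone control (444 ± 138 CPM). Each neighbouring pair in that order passed the test, though the first pair did not in 8 of 24 fits without 1 library and the last did not without livers labelled diabetic (-0.42, adjusted p = 0.201). The order for Cyp2a5 was vehicle atglistatin (907 CPM), corticosterone atglistatin (875 ± 276 CPM), corticosterone control (308 ± 136 CPM) and vehicle control (249 CPM), and within each diet the difference between treatments did not pass the test. For Nqo1 the means ran from 9.56 ± 1.61 CPM in corticosterone atglistatin to 7.55 CPM in vehicle atglistatin, 4.99 ± 1.94 CPM in corticosterone control and 3.68 CPM in vehicle control. Of these neighbouring pairs, the first did not pass the test and the middle was not tested. The last pair passed, a call lost in 12 of 24 fits without 1 library.

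Among the 14 corticosterone control-diet livers, 9 labelled diabetic were compared with 5 labelled nondiabetic. The label did not follow fed glucose in every liver, as given in the labels without a unit. Replicate 36, labelled nondiabetic, had 242, against 131 to 145 in the other 4 of that label and 254 to 407 in those labelled diabetic, while corticosterone atglistatin replicate 26, labelled diabetic, had 212. None of the 6 genes was called, and edgeR called 0 of 12003 genes (0%), as did DESeq2 and limma voom, with 448 genes at an unadjusted p under 0.05. All 6 overlapped, where 0.0167% of genes were lower without overlap and 0% higher. Cyp1a2 was at 194 to 556 CPM (median 368) in livers labelled diabetic, and at 387 CPM (replicate 29) and then higher, to 610 CPM (median 582), in the others. Its log2 difference was -0.51 ± 0.22, with an unadjusted p of 0.0302 and an adjusted p of 0.993. Cyp2a5 was at 177 to 603 CPM (median 339) in livers labelled diabetic and at 112 to 356 CPM (median 220) in the others (0.63 ± 0.31, adjusted p = 0.993). Tiparp was at 9.73 to 31.1 CPM (median 18.3) and 10.4 to 21.9 CPM (median 10.6), and its wide spread was thus present under both labels. Without replicate 36 none of the 6 genes was called, and Cyp1a2 was at -0.49.

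Of 13 listed genes of AHR partners, chaperones, coactivators and repressors, 11 were tested. With atglistatin under vehicle 0 were higher and 1 lower, the clock factor Arntl (log2 -1.03 ± 0.25, adjusted p = 0.00983), where 3.13% of all genes were called. Under corticosterone, where 11.7% were called, 1 was higher, Hif1a, a partner of ARNT in low oxygen (log2 0.18 ± 0.06, adjusted p = 0.0462). With corticosterone on the control diet, where 44.2% were called, 1 was higher, the coactivator Ncoa1 (0.33 ± 0.10, adjusted p = 0.00798). On the atglistatin diet, where 36.7% were called, 1 was higher, Arntl (0.73 ± 0.23, adjusted p = 0.0105). Arnt itself was at a mean of 8.23 to 10.04 CPM over the 4 groups, with log2 fold changes of 0.14 ± 0.08 and 0.13 ± 0.07 for atglistatin under vehicle and corticosterone, neither called.

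Of other genes of the AHR battery, a set of 14 further target genes, 9 were tested, and most of these 9 were called as higher with atglistatin. Listed genes that were not tested do not enter the counts. Under vehicle 6 were higher and 0 lower, with a median log2 fold change of 0.62, where 1.47% of all genes were higher and 1.66% lower and the median of all genes was -0.0022. This list and the other gene lists were chosen with earlier results of these data known, so such counts are not independent of the data. Cbr3, a carbonyl reductase also known as an NRF2 target, rose from a mean of 1.06 to 3.85 CPM (log2 1.85 ± 0.29, adjusted p = 6.64e-05). Ugdh, which makes the UDP-glucuronate used in conjugation, rose from 107.6 to 166 CPM (0.62 ± 0.09, adjusted p = 2.34e-05), and Htatip2 rose from 35.02 to 59.6 CPM (0.77 ± 0.14, adjusted p = 0.00051). Nfe2l2, the gene of NRF2 itself, was higher by 0.41 ± 0.11 (adjusted p = 0.028). Ugt1a6a, also of this list, was at 0.54 ± 0.22 with atglistatin under vehicle and 0.23 ± 0.185 under corticosterone, not called in either.

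Under corticosterone 5 battery genes were higher with atglistatin and 1 was lower, with a median of 0.66, where 5.19% of all genes were higher and 6.47% lower and the median of all genes was 0.00044. Cbr3 (2.86 ± 0.22, adjusted p = 1.38e-14), Gsta1, a glutathione transferase (1.92 ± 0.36, adjusted p = 0.000159), Htatip2 (0.84 ± 0.12), Ugdh (0.69 ± 0.08) and Nfe2l2 (0.66 ± 0.09) were higher. Cd36, a fatty acid transporter, was lower (-0.63 ± 0.20, adjusted p = 0.0325). Fmo2, a flavin monooxygenase, was higher with atglistatin under vehicle (1.36 ± 0.35, adjusted p = 0.0173), and under corticosterone it was at 0.10 ± 0.28, not called. With corticosterone on the control diet Fmo2 was higher, from a mean of 6.89 to 52.7 CPM (2.93 ± 0.35, adjusted p = 1.28e-09). In the interaction Xdh, xanthine dehydrogenase, was called (-0.50 ± 0.13, adjusted p = 0.031) and Fmo2 was not (-1.26 ± 0.44, adjusted p = 0.165).

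**Figure D4:**
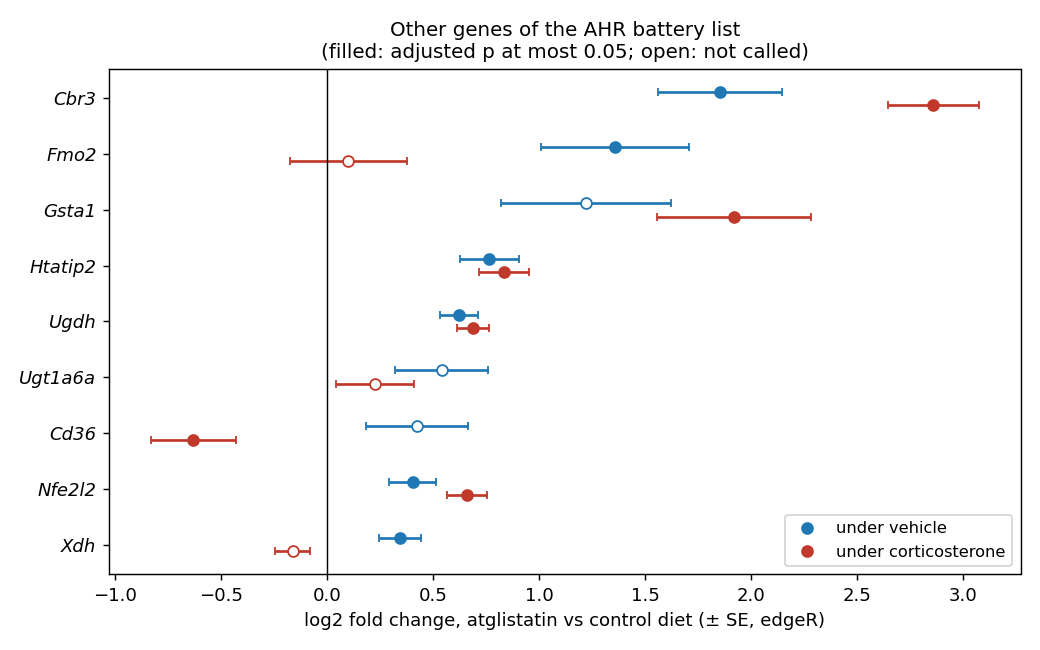
Log2 fold change ± SE (x axis) of the 9 tested genes of the AHR battery list, atglistatin against control diet, under vehicle (blue) and corticosterone (red). Filled points have an adjusted p of at most 0.05. Cbr3, Htatip2, Ugdh and Nfe2l2 are filled and to the right of 0 in both, while Cd36 is filled and to the left only under corticosterone.

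Sets of other receptors are given beside the shares over all genes, which with atglistatin were 1.47% higher and 1.66% lower under vehicle and 5.19% higher and 6.47% lower under corticosterone. Of 7 tested targets of the xenobiotic receptors CAR and PXR, 0 were called with atglistatin under vehicle, and under corticosterone 0 were higher and 1 lower, Cyp2b10 (-0.80 ± 0.27, adjusted p = 0.0438). The median log2 fold change of these 7 was 0.415 under vehicle, against -0.0022 over all genes, though none passed the test. Under corticosterone it was -0.061, against 0.00044. With corticosterone on the control diet 5 were higher and 2 lower, where 22.5% of all genes were higher and 21.7% lower. Among the 5 was Cyp2b10, a textbook CAR target, from a mean of 7.11 to 581 CPM (6.35 ± 0.40). Of 11 tested NRF2 targets, 2 were higher with atglistatin under vehicle and 6 under corticosterone, and none was lower in either. Gstm1, a glutathione transferase, rose in both (0.95 ± 0.11 and 1.20 ± 0.09), and Gclc, the catalytic subunit of glutathione synthesis, was called under corticosterone (1.09 ± 0.11, adjusted p = 5.55e-11) and not under vehicle (0.36 ± 0.12, adjusted p = 0.106), with an interaction of 0.73 ± 0.16 (adjusted p = 0.00984). Near-identical copies within the Gstm and Cyp2b families could share reads, which makes their values uncertain.

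Of 10 listed regulators of Cyp2a5, 4 were higher with atglistatin under each treatment and none lower, beside 1.47% of all genes higher under vehicle and 5.19% under corticosterone. Dbp and Nfe2l2 were called in both and are described above. The other 2 genes were singled out after their values were seen. Nr1i3, the gene of CAR, rose from a mean of 50.1 to 100.8 CPM under vehicle (1.01 ± 0.17, adjusted p = 0.000154) and from 71.6 to 105 CPM under corticosterone (0.55 ± 0.14, adjusted p = 0.00534). Tef, a PAR bZIP factor, rose by 1.13 ± 0.20 and 0.62 ± 0.17 (adjusted p = 0.000408 and 0.0112). Hlf, the third factor of that family, was at 0.38 ± 0.12 and -0.22 ± 0.10, not called, with an interaction of -0.60 ± 0.16 (adjusted p = 0.0359). Hnf4a, a hepatocyte factor, was not called with atglistatin and was higher with corticosterone on the control diet (0.65 ± 0.09, adjusted p = 3.72e-08).

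Cyp1a2 is a pericentral gene, so genes of that zone were counted, and after them 4 further lists. Counts are for atglistatin, which called 3.13% of all genes under vehicle and 11.7% under corticosterone, and a count of 1 in 9 or 1 in 10 is near the latter share. Of 12 pericentral genes, 0 were called with atglistatin under vehicle, while under corticosterone 0 were higher and 5 lower, including Glul, glutamine synthetase (-0.997), and Oat, ornithine aminotransferase (-1.13). Cyp1a2 rose in both. Of 10 periportal genes 0 were called under vehicle and 1 was lower under corticosterone, Cps1 (-0.37). Of 9 tested enzymes of the tryptophan to kynurenine route, which yields AHR ligands, 1 was lower with atglistatin under vehicle, Ido2 (-0.45 ± 0.09, adjusted p = 0.00163), and under corticosterone 2 were lower, Ido2 (-0.33) and Acmsd (-0.89), and 1 higher, Kyat1 (0.28). Of 11 genes of heme synthesis and breakdown, 1 was higher under vehicle and 2 under corticosterone, Blvrb, a biliverdin reductase, in both (0.47 and 0.64). Of 7 electron donors and other drug-metabolising partners, 2 were higher under vehicle, including Por, the P450 reductase (0.81 ± 0.23, adjusted p = 0.035), and under corticosterone 1 was higher and 1 lower.

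The other Cyp2a genes gave a mixed picture beside Cyp2a5. Cyp2a12, a steroid hydroxylase (chr7:27029081-27037375), was at a mean of 440 and 391 CPM under vehicle and 717 and 658 CPM under corticosterone on the control and atglistatin diets, and neither diet comparison was called (-0.17 ± 0.10 and -0.12 ± 0.09). Cyp2a22 was lower with atglistatin under corticosterone (-1.37 ± 0.39, adjusted p = 0.0159), from a mean of 12.97 to 4.91 CPM, and not called under vehicle (1.08 ± 0.60). Both were higher with corticosterone on the control diet, by 0.70 ± 0.10 and 3.55 ± 0.54.

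Cyp2a4 (chr7:26307169-26315088), a steroid 15-alpha-hydroxylase, is a near copy of Cyp2a5. Their annotated transcripts matched at 98.3% of aligned bases, and 12.4% of the 50-base words in the last 500 bases of Cyp2a5 were also in Cyp2a4. How reads that fit both genes were counted is not given in the sources used here, so a small transfer between them cannot be seen. Cyp2a4 was at most 4.04 CPM in all libraries but 1, vehicle atglistatin replicate 14, at 34.4 CPM. Cyp2a4 was higher with atglistatin under vehicle, from a median of 0.163 to 0.818 CPM (log2 4.48 ± 0.86, adjusted p = 0.000897), and without replicate 14 it was at 2.11 ± 0.64 (adjusted p = 0.0628). Its share of the summed counts of both genes had medians of 0.0617% and 0.106% on the control and atglistatin diets with vehicle and 0.0894% and 0.0614% with corticosterone, and its highest value was 3.20%. The log2 ratio of Cyp2a5 to Cyp2a4 counts was not called in any of 4 comparisons (2-sided permutation test, adjusted p = 0.632 in each). This rests on the 0.5 counts added to each gene, since with 5 added counts the ratio for atglistatin under corticosterone moved from 0.31 to 1.16 and was called (adjusted p = 0.00768), and under vehicle it moved from -0.75 to 0.49. Without livers labelled diabetic it was -0.96 for atglistatin under corticosterone (adjusted p = 0.33), so no direction is given for the ratio.

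Within groups the 6 genes did not vary as 1 block. Over the 48 libraries, with group means removed, the highest Pearson's r among their 15 pairs was 0.567, for Nqo1 and Cyp2a5, followed by 0.377 for Ahr and Cyp2a5. Cyp1a1 and Cyp1a2 reached 0.314, and Ahr reached 0.264 with Cyp1a1 and 0.162 with Cyp1a2. Tiparp had an r between -0.164 and 0.0916 with the other 5. These values and those that follow are descriptions over libraries that share depth and scaling.

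The genes most like each member within groups were found among those with a mean of at least 5 CPM. Cyp1a2 was most like Cyp2e1, another pericentral P450 gene (r = 0.860), Syt1 (0.795) and Glul (0.778). Nqo1 was most like Mgst3, a microsomal glutathione transferase (0.780), Cyp3a25 (0.724) and Fam13a (0.682). Cyp2a5 was most like Akr1d1, the steroid 5-beta-reductase (0.753), Gch1, which starts tetrahydrobiopterin synthesis (0.748), and Pank1, a pantothenate kinase (0.746).

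Weaker likeness was found for the rest. Tiparp was most like Arrdc4 (0.657), Klf10 (0.654) and Morf4l1 (0.634). Ahr was most like Aldh1a1, a retinaldehyde dehydrogenase (0.582), Scly (0.548) and Cept1 (0.519). Cyp1a1, with its few counts, was most like Nt5dc1 (0.5679), Ctu2 (0.541) and Cars2 (0.5256).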

How the data were processed

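Liver RNA of 48 mice was sequenced as Lexogen QuantSeq libraries with 50-base forward reads, per the labels' protocols. The authors deposited raw counts per gene, and the submitters' processing notes name GRCm38, R 3.6 and DESeq2 1.24.0. How reads were aligned, counted and assigned to strands is not given in the sources used here. A second deposited table, of normalized values, holds signal values that equal the counts over 1 factor per library (largest relative deviation 5.3e-15), and it was used for gene symbols and for that check. Symbols came from it for 12491 genes and from GENCODE M21 for 1728, and 32 gene IDs had none. All per-sample columns were mapped by their titles.

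The 6 genes, the gene lists and the comparisons were chosen with earlier results of these data known. The low-count filter was edgeR's filterByExpr with a minimum count of 10 and a minimum total of 15, and 12688 genes passed. After TMM scaling, all 48 libraries were fitted together by group (edgeR 4.0.16, R 4.3.3) and tested by quasi-likelihood with Benjamini-Hochberg adjustment over all genes, and an adjusted p of at most 0.05 was called. The diabetic labels were fitted on 14 libraries and 12003 genes. SE is the log2 fold change over the root of F. The Cyp2a5 to Cyp2a4 ratio used 0.5 added counts and 2-sided permutation tests with 100000 resamples. The edgeR fit was tested on simulated data. Named were the 6 genes, any gene of the AHR partner, AHR battery and Cyp2a lists, up to 4 genes of each other list by smallest p (1 listed gene is not reported here), and for each of the 6 genes the 3 with the highest within-group correlation. Other settings were RLE factors, DESeq2 1.42.0, limma 3.58.1 voom, no filter, library totals (added after seeing the data), the compared groups alone, a clock covariate, and subsets of libraries. Sequences are from RefSeq (GRCm38.p6).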

Additional observations from a re-analysis of the deposited data

Results flagged for a closer look

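In a screen of 36 groups of 4 to 10 livers over the 6 genes and the 3 other Cyp2a genes, 5 had a highest or lowest liver set apart by Dixon's gap test, where chance gives about 1 in 20. Cyp1a2 was low in corticosterone control-diet replicate 29, labelled nondiabetic, at 387 CPM, beside 4 livers of that label at up to 610 CPM. Tiparp was high in vehicle control-diet replicate 4, at 15.7 CPM, with the next liver at 9.87 CPM. The same liver was highest in Cyp2a22, at 3.21 CPM. Cyp2a4 was at 34.4 CPM in vehicle atglistatin replicate 14, where the next liver had 1.45 CPM, and this liver also had the highest Dbp of all, 132.6 CPM. Cyp2a12 stood apart in corticosterone control-diet replicate 49, labelled nondiabetic, at 843 CPM. The response of Tiparp to atglistatin differed between treatments by a log2 interaction of -0.87 in edgeR's quasi-likelihood test (adjusted p = 0.0419). Causes were not tested.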

How the results depend on the processing

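Of 377 values of the 6 genes under other settings, 350 kept their direction and side of the threshold, 15 lost a call, 3 gained one and 9 changed sign. With atglistatin, Cyp1a1, Cyp1a2 and Cyp2a5 were called under both treatments in every fit without 1 library and in every other setting run except the livers with shared numbers alone. The cause of the changes below was not tested. For corticosterone on the control diet, 2 of the 6 genes and 3614 genes in all were called without livers labelled diabetic, and 3 with the compared groups alone, where Cyp1a1 was removed by the filter. Cyp2a5 there changed sign to -0.16 without livers labelled diabetic. On the atglistatin diet 1 gene was called without replicate 41, where Cyp2a5 became 0.0020, and 1 with the clock index, where Cyp2a5 became 0.31 and Tiparp -0.0088. Without 1 library in turn, 1 to 2 were called and Cyp2a5 ran from -0.17 to 0.021.

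For atglistatin under vehicle, 207 genes in all were called without libraries with Cpa1 above 20 CPM, 15 with the clock index and 899 with voom, against 397. Under corticosterone 3004 were called with library totals alone, 609 without livers labelled diabetic and 793 with the clock index, against 1479. The interaction lost its 1 member with library totals, without livers labelled diabetic (76 genes in all) and without Cpa1 libraries (64 genes), had 0 to 1 without 1 library in turn, and had 359 genes with voom, against 181. Its sign changed for Cyp1a2 (-0.035), Nqo1 (0.25) and Cyp2a5 (0.11) without livers labelled diabetic, and for Nqo1 without Cpa1 libraries (0.22) and with voom (0.082). Without replicate 36 of the corticosterone control-diet livers as well, a setting added after seeing the data and not among the 377 values, Cyp2a5 was at -0.15 for corticosterone on the control diet, and the interaction was at -0.0090 for Cyp1a2, 0.35 for Nqo1 and 0.11 for Cyp2a5. Leaving out 1 library in turn from all livers gave 0.18 to 0.41 for Cyp2a5 with corticosterone on the control diet, and interactions of 0.098 to 0.29 for Cyp1a2 and -0.47 to -0.26 for Cyp2a5. Cyp2a4 with atglistatin under vehicle lost its call without replicate 14 (2.11, adjusted p = 0.0628), also added after seeing the data. Ahr between the diabetic labels ran from -0.11 to 0.18 without 1 library in turn. The Cyp2a5 to Cyp2a4 ratio rests on few Cyp2a4 counts. With 5 added counts it was 0.49 with atglistatin under vehicle and 1.16 (adjusted p = 0.00768) under corticosterone, and without livers labelled diabetic it was 0.92 for corticosterone on the control diet and -0.96 for atglistatin under corticosterone.

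Some groups share title numbers, 9 to 12 in the vehicle groups and 13 and 14 in the atglistatin groups. Livers with the same number did not deviate together (r from -0.117 to 0.0357), and none correlated best with its own number. With the shared-number livers alone and the number as a replicate block, 0 of the 6 genes and 4 genes in all were called for atglistatin under vehicle, and 0 and 56 for corticosterone on atglistatin, where Ahr was at 0.27. The same livers without the block, a setting added after seeing the data, gave 0 and 0, and 0 and 300, with Ahr at 0.27. Depth limits Cyp1a1 most, at 0 to 77 counts per library.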
